A study of Mus musculus with 30 samples.

Results

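RNA of 10 genes that mark T cells (Cd3d, Cd3e, Cd3g, Cd2, Cd4, Cd8a, Lck, Cd28, Il7r and Rgs1) was followed through astrocytes and microglia sorted from mouse spinal cord. The genes were chosen by name, as protein-coding entries of the deposited annotation, and all 10 were found among the 30952 genes of the table. All mice were female C57BL/6 mice. Naive mice were compared with mice in which EAE (experimental autoimmune encephalomyelitis), a T cell-driven inflammatory disease of the CNS, had been induced by immunization with a myelin peptide (MOG). Once they reached a clinical score of around 1, mice with EAE received vehicle (20% Captisol; EAE-vehicle) or the RIPK1 kinase inhibitor RIPK1inh-1 at 50 mg/kg (EAE-RIPK1inh) by oral gavage, BID for 3 days. Each cell type was sequenced from 4 naive, 6 EAE-vehicle and 5 EAE-RIPK1inh mice, which gave 15 libraries of astrocytes and 15 of microglia.

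T cells recognise antigen through the T cell receptor, which signals through the CD3 chains and the kinase Lck, with CD4 or CD8 as co-receptor and CD28 as co-stimulator. In EAE, CD4+ T cells that recognise myelin enter the CNS. CD3 chains are markers of T cells and are not known from astrocytes or microglia, whereas Rgs1 and Il7r are also known from myeloid cells. Astrocytes were gated as GLAST+CD11b-CD45-CD140a- and microglia as CD11b+CD45intCX3CR1+, and CD45 is the surface protein that all leukocytes carry. In such bulk libraries, fewer cells of a type and less RNA per cell cannot be told apart.

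Values are given as log2 FPKM (reads corrected for gene length and library size), quantile-normalized over all 30 libraries. Since FPKM is scaled to gene length, levels of different genes may be set side by side. A gene without fragments in a library still holds a low value that follows its place in the table, and such a gene is called without signal here. Astrocyte libraries held signal for 6728 to 22981 genes and microglia libraries for 8710 to 20398, so libraries differed in how readily a rare RNA could be seen. EAE-vehicle astrocyte library 1 detected the fewest genes of all 30, and naive astrocyte library 1 the most. The 8 astrocyte markers averaged 8.30 to 9.64 log2 FPKM in the astrocyte libraries and 0.98 to 2.23 in the microglia libraries. The 10 microglial markers averaged 8.13 to 10.4 in microglia and 0.88 to 3.53 in astrocytes, so every library held the cell type on its label. Astrocyte libraries also held oligodendrocyte RNA. The 7 oligodendrocyte markers averaged 6.13 to 7.39 in naive, 6.38 to 9.91 in EAE-vehicle and 7.81 to 9.19 in EAE-RIPK1inh astrocytes. In EAE-vehicle astrocyte library 6 they averaged 9.91, above the astrocyte markers at 8.54.

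Cd3g, Cd3d and Cd3e, which encode the gamma, delta and epsilon chains of CD3, lie together on chromosome 9. In GRCm38, Cd3g spans chr9:44969572-44980431 on the minus strand, Cd3d chr9:44981786-44987339 on the plus strand and Cd3e chr9:44998740-45009627 on the minus strand. Cd3g and Cd3d are transcribed away from each other, from starts that lie 1355 bases apart. The 250 bases before each start are shown because these genes lie together. They come from RefSeq on GRCm38.p6, run 5′ to 3′ on the strand of the gene, and hold in capitals each GGAA and, for the other strand, TTCC, the core that Ets family transcription factors bind.
Cd3d, chr9:44981536-44981785, plus strand: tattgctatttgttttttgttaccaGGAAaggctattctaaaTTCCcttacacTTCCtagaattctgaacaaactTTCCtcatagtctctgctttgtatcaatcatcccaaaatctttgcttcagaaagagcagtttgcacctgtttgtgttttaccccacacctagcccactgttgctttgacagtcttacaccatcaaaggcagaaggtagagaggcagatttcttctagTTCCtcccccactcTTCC
Cd3e, chr9:45009612-45009861, minus strand: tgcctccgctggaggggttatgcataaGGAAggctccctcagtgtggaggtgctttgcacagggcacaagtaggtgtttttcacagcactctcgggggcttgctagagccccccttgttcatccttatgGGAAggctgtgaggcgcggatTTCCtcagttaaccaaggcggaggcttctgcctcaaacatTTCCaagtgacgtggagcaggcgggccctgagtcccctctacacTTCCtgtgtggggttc
Cd3g, chr9:44980432-44980681, minus strand: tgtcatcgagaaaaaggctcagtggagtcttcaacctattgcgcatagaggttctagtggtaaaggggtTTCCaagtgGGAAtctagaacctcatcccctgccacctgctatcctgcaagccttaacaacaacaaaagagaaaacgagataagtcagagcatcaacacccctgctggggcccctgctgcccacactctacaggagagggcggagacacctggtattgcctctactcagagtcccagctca
These letters occurred 6 times before Cd3d, 5 times before Cd3e and 2 times before Cd3g, counted on both strands and with no overlap between them. Of all 32851 windows of that length in the RefSeq table, 93.4% held them at least once, so the match is a common one.

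To examine whether lymphocyte RNA entered the astrocyte sort in EAE, EAE-vehicle astrocytes were compared with naive astrocytes. T cell genes were near absent from naive astrocytes and abundant after EAE: 8 of 40 values (10 genes in 4 libraries) had signal in naive astrocytes, against 50 of 60 in EAE-vehicle astrocytes. Cd3d, Cd3e, Cd3g, Cd2, Lck, Il7r and Rgs1 rose, which is 7 of 10 genes at the cutoff of the study, a fold change over 1.5 with an unadjusted p under 0.05 (limma). Across all genes tested in astrocytes, 2.69% rose at that cutoff. With Benjamini-Hochberg adjustment over all genes, 1 of the 10, Cd2, passed an adjusted p of 0.05, where 0.342% of all genes passed in that direction. The median difference over the 10 genes was 3.47 on the log2 scale, against 0.03 over all genes, and it includes 4 genes without signal in any naive library.

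**Figure D1:**
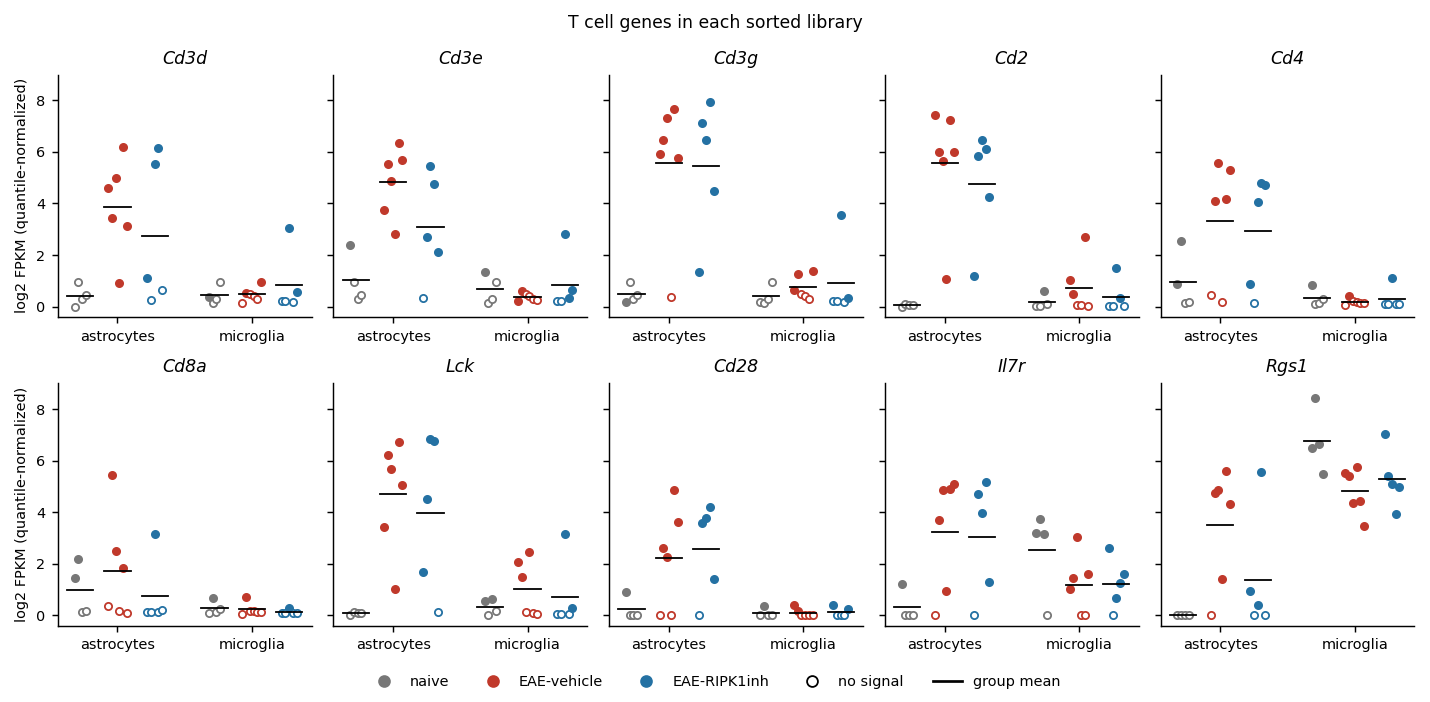
Level of each of the 10 T cell genes in every library, in quantile-normalized log2 FPKM, by sorted cell type and treatment; filled points had signal, open points had none, and black lines are group means of the deposited values. In EAE astrocytes most genes lie far above naive astrocytes, whereas among microglia only Rgs1 and, less so, Il7r stand above the floor in most libraries, with a single EAE-RIPK1inh microglia library holding CD3 chains at 2.82 to 3.57.

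Each of the CD3 chains was called higher in EAE-vehicle astrocytes. Cd3g reached 5.76 to 7.68 log2 FPKM in 5 of 6 EAE-vehicle astrocyte libraries and had no signal in library 4, and among naive astrocytes it had signal only in library 1, at 0.19. The groups overlapped through library 4 alone, and the difference was 5.11 ± 1.36 (limma, SE; adjusted p = 0.144; exact permutation p = 0.0286). Cd3e ran from 2.81 to 6.34 in EAE-vehicle astrocytes with a median of 5.21, and was without signal in 3 of 4 naive libraries, with 2.38 in the other. These groups did not overlap, with a difference of 3.81 ± 0.95 (limma, SE; adjusted p = 0.107; exact permutation p = 0.00952). Cd3d had signal in all 6 EAE-vehicle libraries, from 0.92 to 6.21 with a median of 4.01, and in no naive library, so no fold change is given (adjusted p = 0.410 by limma; exact permutation p = 0.0190). The deposited annotation marks Cd3e and Lck as confounded with another gene, so their values are less certain than those of the others.

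Cd2 (chr3:101275899-101287939), an adhesion receptor that helps T cells bind other cells, ran from 1.06 to 7.42 in EAE-vehicle astrocytes with a median of 5.99, and had no signal in any naive astrocyte library. The groups did not overlap (adjusted p = 0.0495 by limma; exact permutation p = 0.00952), although the adjusted value ranged from 0.00130 to 0.310 over the alternative settings. Lck (chr4:129548344-129573641), the kinase that phosphorylates the CD3 chains, ran from 1.04 to 6.71 with a median of 5.38 in EAE-vehicle astrocytes and again had no signal in naive ones, without overlap (adjusted p = 0.202 by limma; exact permutation p = 0.00952). Cd3e, Cd2 and Lck were thus the 3 of 10 genes whose groups did not overlap, which 1.02% of all genes showed in this direction.

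Co-receptors and co-stimulators were lower and patchier. Cd4 (chr6:124864692-124888221) was at 4.11 to 5.58 in 4 EAE-vehicle astrocyte libraries and without signal in libraries 1 and 4, while 2 naive libraries held 0.87 and 2.55. The groups overlapped and the difference of 2.36 ± 1.25 did not reach the cutoff (limma, SE; adjusted p = 0.834). Cd4 reached the cutoff without library 1, the library with the fewest detected genes, at 2.93, and without library 4, at 2.98. Cd8a (chr6:71373427-71379173), the co-receptor of cytotoxic T cells, had signal in 3 EAE-vehicle libraries, at 5.45, 2.50 and 1.83, and in 2 naive libraries, at 1.46 and 2.18 (difference 0.75 ± 1.01, SE; adjusted p = 0.886 by limma). Cd8b1, the other CD8 chain, is listed with the other T cell genes below and was called higher, by 2.58 ± 0.92 (limma, SE, adjusted p = 0.415). It had signal in 4 of 6 EAE-vehicle libraries, with a group median of 3.44, and naive values did not exceed 0.25. Cd28 (chr1:60716800-60773359) held 2.26 to 4.85 in 4 EAE-vehicle libraries, no signal in libraries 1 and 4, and 0.92 in a single naive library. Its difference of 1.99 ± 1.02 did not reach the cutoff (limma, SE; adjusted p = 0.806), and did so without library 1 or library 4, at 2.44 in both cases.

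Il7r (chr15:9505788-9530176), the receptor chain for the survival cytokine IL-7, ran from no signal in library 1 to 5.11 in EAE-vehicle astrocytes, with a median of 4.28, and had 1.22 in a single naive library. The difference of 2.94 ± 1.19 was called (limma, SE; adjusted p = 0.549; exact permutation p = 0.0571), and the call was lost, at 2.57 to 2.84, when any of naive libraries 2, 3 and 4 or EAE-vehicle libraries 3, 5 and 6 was left out. Rgs1 (chr1:144242296-144249242), which dampens signals of chemokine receptors, was at 4.31 to 5.60 in EAE-vehicle libraries 2, 3, 5 and 6, at 1.41 in library 4 and without signal in library 1 and in all naive astrocytes (adjusted p = 0.380 by limma; exact permutation p = 0.0286).

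By mean level in EAE-vehicle astrocytes, the order was Cd3g (5.59), Cd2 (5.55), Cd3e (4.83), Lck (4.69), Cd3d (3.88), Rgs1 (3.49), Cd4 (3.30), Il7r (3.25), Cd28 (2.22) and Cd8a (1.74). Every step between neighbours was at most 1.03, less than the smallest SD of any of these genes over the 6 libraries, 1.33. T cell RNA varied between mice of the same group: the mean of the CD3 chains lay between 4.75 and 6.74 in 5 EAE-vehicle libraries and at 1.37 in library 4, where 6 of the 10 genes had signal and none exceeded 2.81. Library 1 held Cd2 at 7.42 and Cd3g at 5.92 with 6728 genes detected, while Cd4, Cd8a, Cd28, Il7r and Rgs1 were without signal there; values without signal reached 2.74 in that library, the highest of the 30.

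Other T cell genes were examined from a list of 32. Of these, 14 rose at the cutoff in EAE-vehicle astrocytes, beside 2.69% of all genes, and none fell, beside 4.01%. The other 18 were not called, none of the 32 had an adjusted p under 0.05 (limma), and the median difference was 2.37. Il2rg, the common gamma chain of cytokine receptors and the most abundant of these genes in the group, ran from 1.24 to 8.09 with a median of 6.76. Of 10 genes of NK and cytotoxic lymphocytes, 3 rose and none fell; the shares of all genes, 2.69% higher and 4.01% lower, are the background of this and of each list that follows. The most abundant, the chemokine Ccl5, ran from 2.61 to 7.54. Of 7 B cell genes none was called, and their mean level was 0 to 0.40 in EAE-vehicle astrocytes and 0 to 0.33 in naive ones, with values without signal taken as 0.

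Marker genes of other cells moved in the same comparison. Of 7 genes shared by leukocytes, 6 rose in EAE-vehicle astrocytes, 2 of them by adjusted p (limma), namely Laptm5, a lysosomal protein, by 4.44 ± 0.91 (SE; adjusted p = 0.0420) and Cd52, a small surface glycoprotein, by 5.72 ± 1.19 (SE; adjusted p = 0.0434). Their mean level was 2.26 to 6.82 in EAE-vehicle astrocytes against 0.45 to 1.73 in naive ones, and was lowest in library 4. Ptprc, which encodes the CD45 that the gate excluded, ran from 2.42 to 5.65 with a median of 5.11 in EAE-vehicle astrocytes. In naive astrocytes Ptprc had signal in 2 of 4 libraries, up to 2.49, so the groups overlapped. Of 10 monocyte and neutrophil genes 5 rose and of 10 microglial genes 3 rose, 1 of them by adjusted p (Aif1, 3.78 ± 0.76, SE; adjusted p = 0.0393 by limma). Oligodendrocyte genes rose as well, 4 of 7, with Mobp, a myelin protein, at a difference of 2.34 ± 0.38 (SE; adjusted p = 0.00845 by limma). Astrocyte markers moved the other way: 4 of 8 fell and 1 rose, with a median of -1.14. By adjusted p (limma), Gja1, a gap junction protein, fell by 3.07 ± 0.43 (SE; adjusted p = 0.00283) and Slc1a3, which encodes the GLAST of the gate, fell by 1.94 ± 0.38 (SE; adjusted p = 0.0320), while Gfap, an intermediate filament, rose by 2.47 ± 0.28 (SE; adjusted p = 0.000350). The mean of the 8 was 9.31 to 9.64 in naive and 8.30 to 9.27 in EAE-vehicle astrocytes, where it was highest in library 4, the library with the least T cell RNA. Whether these other cells or the fall of astrocyte markers account for any of the T cell signal was not tested. The defining B cell markers Cd79a and Ms4a1 did not exceed 0.85 in any EAE-vehicle astrocyte library.

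**Figure D2:**
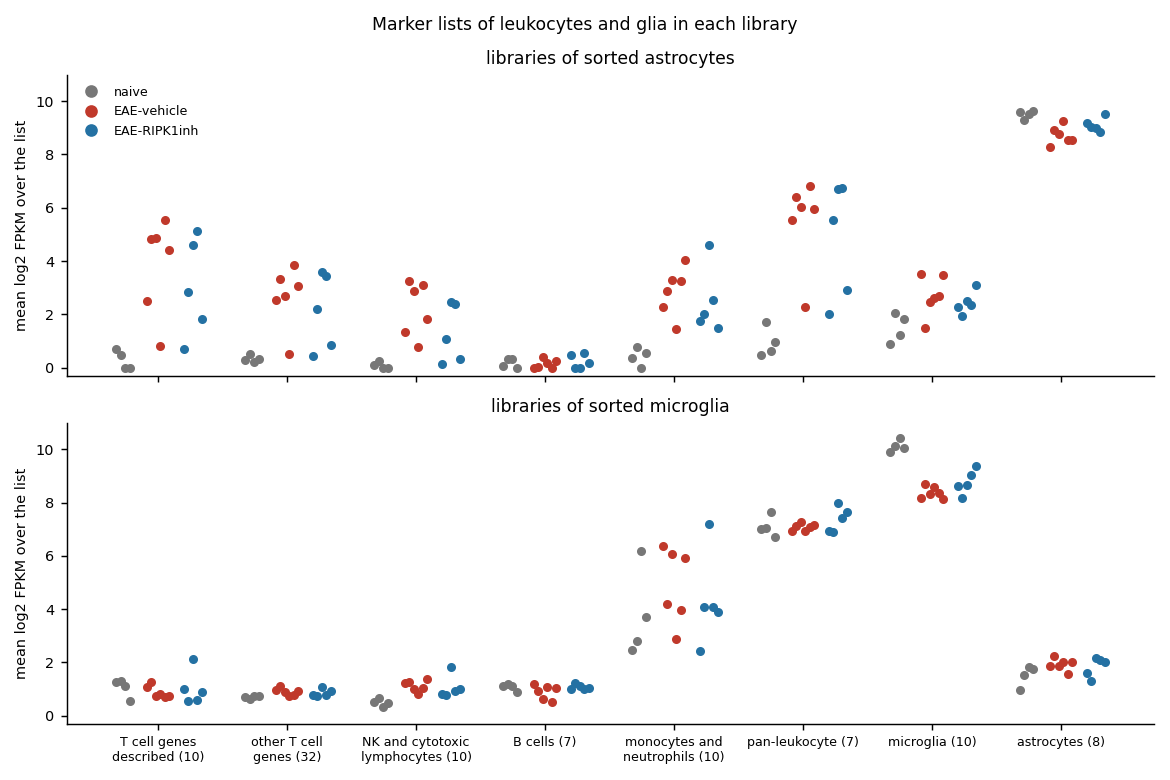
Mean log2 FPKM over lists of marker genes in each library (values without signal taken as 0; number of genes in brackets), for sorted astrocytes above and sorted microglia below, by treatment. The 10 T cell genes, the other T cell genes and the leukocyte genes rise with EAE in astrocytes, from at most 0.70, 0.53 and 1.73 in naive libraries, whereas B cell genes do not exceed 0.53 in any astrocyte library.

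To examine whether RIPK1inh-1 changed the T cell RNA of the astrocyte sort, EAE-RIPK1inh astrocytes were compared with EAE-vehicle astrocytes. None of the 10 genes reached the cutoff, where 3.02% of all genes did, and none had an adjusted p under 0.05, as was so for 0.00% of genes; none had an unadjusted p under 0.05 (limma). T cell RNA was present in both groups, with 37 of 50 values showing signal under RIPK1inh-1. Cd3g was at 1.33, 7.13, 6.47, 7.93 and 4.50 in EAE-RIPK1inh libraries 1 to 5, which overlaps the vehicle group widely (difference -0.12 ± 1.28, SE; adjusted p = 1 by limma). Cd2 was at 1.20, 5.84, 6.45, 6.13 and 4.24, with a difference of -0.78 ± 1.10 (SE; adjusted p = 0.901 by limma). In both genes library 1 was the lowest of the 5, and all 5 values lay within the range of the vehicle group apart from Cd3g in library 4, which lay above it; vehicle library 4 was lower than library 1 in both genes.

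The differences furthest from 0 were those of Rgs1 and Cd3e. Rgs1 was at 0.93, no signal, 0.39, 5.54 and no signal in EAE-RIPK1inh libraries 1 to 5, and differed by -2.12 ± 1.13 (limma, SE; adjusted p = 0.840; exact permutation p = 0.160). It reached the cutoff when vehicle library 1 or 4 or EAE-RIPK1inh library 4 was left out, at -2.81, -2.53 and -3.16. Cd3e had no signal in library 1 and was at 2.71, 5.44, 4.77 and 2.13 in libraries 2 to 5, a difference of -1.76 ± 0.89 (limma, SE; adjusted p = 0.840; exact permutation p = 0.121). It reached the cutoff without vehicle library 4 or without EAE-RIPK1inh library 3 or 4, at -2.16, -2.35 and -2.18. Cd3d had no signal in libraries 2 and 5 and was at 1.11, 5.54 and 6.13 in libraries 1, 3 and 4 (difference -1.13 ± 1.15, SE; adjusted p = 0.843 by limma).

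Lck was at 1.69, 4.53, 6.83 and 6.75 in libraries 1 to 4 and without signal in library 5, a difference of -0.70 ± 1.24 (SE; adjusted p = 0.936 by limma). Cd4 had no signal in library 2 and lay at 0.87, 4.07, 4.80 and 4.70 in the others, Il7r had none in library 1 and lay at 4.71, 3.97, 5.18 and 1.29 in the others, and Cd28 likewise had none in library 1 and lay at 3.56, 3.77, 4.22 and 1.39. Cd8a had signal in library 3 alone, at 3.17. The differences of these 4 genes ran from -0.98 for Cd8a to 0.37 for Cd28, the only one above 0 among the 10. Of the 32 other T cell genes, 1 fell at the cutoff and none rose, beside 1.18% of all genes lower and 1.84% higher, with a median of -0.52, against -0.03 over all genes. The mean of the genes shared by leukocytes was also lowest in libraries 1 and 5, at 2.02 and 2.91, and lay at 5.53 to 6.74 in the other 3; its part in the differences was not tested.

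Among the 5 EAE-RIPK1inh astrocyte libraries, Rgs1 did not keep step with the CD3 chains. Library 3 held a mean CD3 level of 5.82 with Rgs1 at 0.39, and library 2 a mean of 3.37 with Rgs1 without signal, whereas library 4, with a mean of 6.28, held Rgs1 at 5.54. In EAE-vehicle astrocytes, 4 libraries with a CD3 mean of 4.87 to 6.74 held Rgs1 at 4.31 to 5.60, and library 1, at a CD3 mean of 4.75, held none. These are values of single libraries and no test was made of them.

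**Figure D3:**
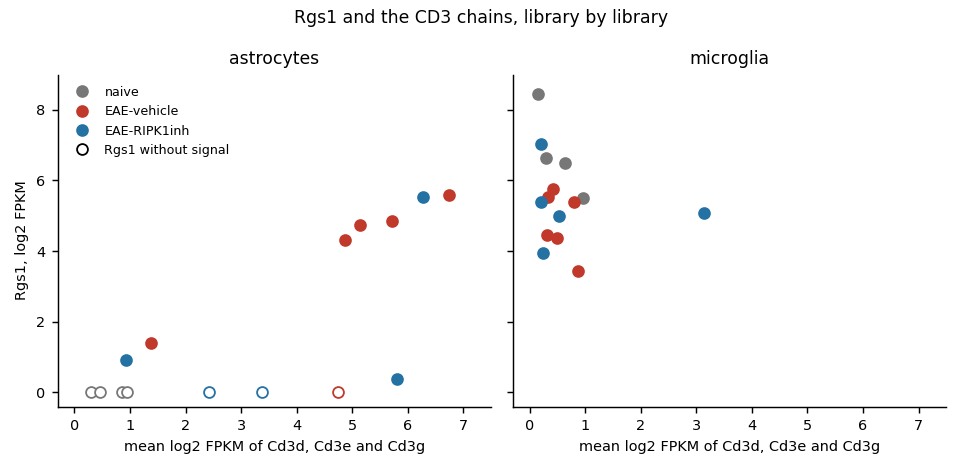
Rgs1 level against the mean level of Cd3d, Cd3e and Cd3g, both in log2 FPKM, with 1 point per library of sorted astrocytes (left) and microglia (right); open points had no Rgs1 signal. In microglia Rgs1 lies at 3.45 to 8.44 with CD3 near the floor in 14 of 15 libraries; in EAE astrocytes it is high only where CD3 is high, and absent or near 0 in 4 libraries with a CD3 mean of 2.43 to 5.82.

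In microglia none of the 10 genes rose with EAE. Of the 10 genes 1 was called in EAE-vehicle against naive microglia, where 12.0% of all genes were called, and that gene, Rgs1, fell. None had an adjusted p under 0.05 (limma), where 3.92% of all genes did, and Rgs1 was also the only one with an unadjusted p under 0.05. Rgs1 was the most abundant of the 10 in microglia: it was at 6.49, 8.44, 6.64 and 5.49 in naive libraries 1 to 4 and at 3.45 to 5.76 with a median of 4.92 in EAE-vehicle libraries. The groups overlapped in part, and Rgs1 fell by 1.94 ± 0.64 (limma, SE; adjusted p = 0.135; exact permutation p = 0.0190). The list of microglial markers fell at the same time, with 8 of 10 genes lower at the cutoff and 1 higher. Of all genes, 5.86% were lower and 6.13% higher. The mean level of the list was 9.90 to 10.4 in naive and 8.13 to 8.68 in EAE-vehicle microglia. The part of these markers in the fall of Rgs1 was not tested.

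Il7r was the other gene with levels above 3 in naive microglia, at 3.20, 3.73 and 3.16 in libraries 1 to 3, and without signal in library 4, which detected the fewest genes of the microglia libraries. It ran from no signal in 2 libraries to 3.06 in EAE-vehicle microglia, with a median of 1.24. The difference of -1.33 ± 0.78 was not called (limma, SE; adjusted p = 0.518), but was called without naive library 4, at -2.18, and without EAE-vehicle library 3, at -1.71. The other 8 genes had signal in 8 of 32 values of naive microglia, at no more than 1.34, and in 17 of 48 values of EAE-vehicle microglia, at no more than 2.70 (Cd2 in library 5). Lck was seen in EAE-vehicle libraries 1, 2 and 4 at 2.06, 1.49 and 2.44, and the CD3 chains did not exceed 1.38 in any of the 6.

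RIPK1inh-1 left none of the 10 called against vehicle in microglia, where 1.76% of all genes were called, and none with an adjusted p under 0.05, as for 0.00345% of genes; none had an unadjusted p under 0.05 (limma). Rgs1 was at 7.04, 5.39, 5.08, 3.94 and 4.98 in EAE-RIPK1inh libraries 1 to 5, a difference of 0.46 ± 0.60 (SE; adjusted p = 0.930 by limma). Il7r was at 2.62, no signal, 0.65, 1.27 and 1.62 (difference 0.05 ± 0.73, SE; adjusted p = 1 by limma). Library 3 stood apart with 9 of 10 genes seen, among them Cd3g at 3.57, Lck at 3.16, Cd3d at 3.03 and Cd3e at 2.82, whereas in the other 4 libraries no CD3 chain exceeded 0.66. The same library also had the highest mean level of the 10 monocyte and neutrophil genes among the 15 microglia libraries, 7.21, and of the 10 NK and cytotoxic genes, 1.83.

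Of 30 other T cell genes tested in microglia, 1 rose in EAE and none fell, beside 6.13% of all genes higher and 5.86% lower. The gene was Il2rg, with 4.83 to 5.99 in naive and 9.22 to 10.2 in EAE-vehicle microglia (4.51 ± 0.29, SE; adjusted p = 3.86e-07 by limma). Ccl5, from the list of NK and cytotoxic genes, ran from no signal to 4.38 in naive and from 8.22 to 8.98 in EAE-vehicle microglia (6.65 ± 0.58, SE; adjusted p = 8.26e-06 by limma). Under RIPK1inh-1, Il2rg was again the only one of the 30 called against vehicle in microglia, where it fell by 0.78 ± 0.27 (SE; adjusted p = 0.930 by limma), beside 0.701% of all genes lower. Of the full list of 32, 28 genes had signal in at least 1 of the 6 EAE-vehicle microglia libraries and 4 had it in none (Ctla4, Ifng, Tbx21 and Zap70). Library 2, which detected the most genes of the microglia libraries (20398), alone held 25 of the 32, and the other libraries of the group held 4 to 15.

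The astrocyte and microglia sorts were then compared directly within each treatment group. In naive mice 1 of the 10 genes was called, Rgs1, where 19.7% of all genes were called: it had no signal in the 4 astrocyte libraries and 5.49 to 8.44 in the 4 microglia libraries (adjusted p = 3.31e-05 by limma; exact permutation p = 0.0286, the smallest that 4 against 4 libraries can give). In EAE-vehicle mice 9 of 10 genes were lower in microglia than in astrocytes, where 10.0% of all genes were, and 7 of 10 had an adjusted p under 0.05 in that direction, where 5.91% of all genes did (limma). Cd3g differed by -4.84 ± 0.97 (SE; adjusted p = 0.000621 by limma), Cd2 by -4.82 ± 0.83 (SE; adjusted p = 8.97e-05) and Cd3e by -4.45 ± 0.68 (SE; adjusted p = 1.72e-05). Rgs1 was the exception, at 1.34 ± 0.88 in the direction of microglia and not called (SE; adjusted p = 0.358 by limma). The calls of Cd8a and Il7r did not survive adjustment (adjusted p = 0.140 and 0.157 by limma), and that of Cd8a was lost without EAE-vehicle astrocyte library 2 or 3, at -0.76 and -1.35. That of Il7r, at -2.06 ± 0.92 (SE), was lost without astrocyte library 2, 3, 5 or 6 or microglia library 4 or 5, at -1.97 to -1.69.

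In EAE-RIPK1inh mice 6 of 10 genes were lower in microglia at the cutoff, where 10.0% of all genes were, and 5 by adjusted p, where 5.78% of all genes were (limma). Cd3g differed by -4.57 ± 1.06 (SE; adjusted p = 0.00314), Cd2 by -4.39 ± 0.91 (SE; adjusted p = 0.00093) and Cd28 by -2.46 ± 0.73 (SE; adjusted p = 0.0224 by limma). Cd3d missed the cutoff at -1.90 ± 0.94 (SE), and reached it without EAE-RIPK1inh microglia library 3, the library with CD3 signal, at -2.45, or without astrocyte library 1, 2 or 5, at -2.31, -2.52 and -2.42. Il7r, at -1.79 ± 1.01 (SE), reached it without astrocyte library 1 or 5, at -2.55 and -2.23. Rgs1 was called higher in microglia, by 3.91 ± 0.97 (SE; adjusted p = 0.00529 by limma). Both sorts of a group come from the same number of mice, and the fit treats their libraries as independent, since no label ties an astrocyte library to a microglia library of the same mouse.

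**Figure D4:**
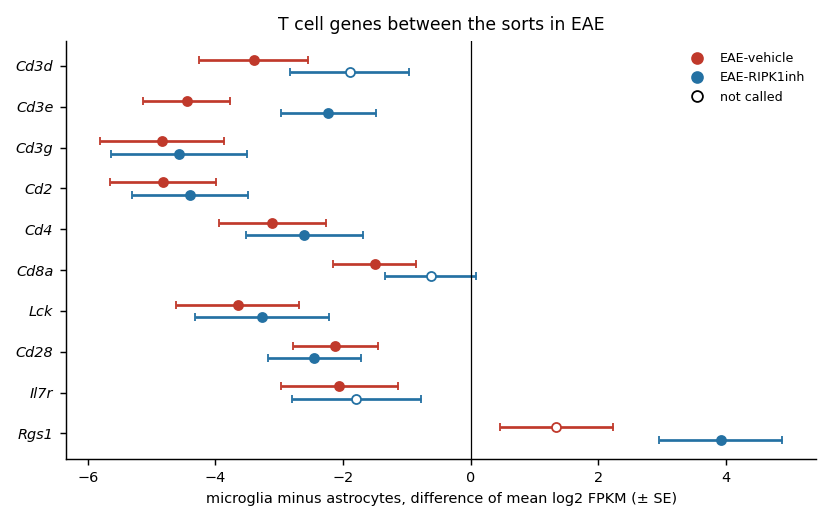
Difference of mean log2 FPKM between microglia and astrocytes, microglia minus astrocytes, for each T cell gene in EAE-vehicle and EAE-RIPK1inh mice; bars are SE from limma and open points did not reach the cutoff. All genes but Rgs1 lie to the left of 0, furthest for Cd3g, at -4.84 and -4.57, and Cd2, at -4.82 and -4.39.

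Finally, the change with EAE was compared between the cell types as an interaction term over all 30 libraries. The change from naive to EAE-vehicle was lower in microglia than in astrocytes for 7 of 10 genes, where 8.68% of all genes were called in either direction. None of the 10 had an adjusted p under 0.05, where 0.982% of all genes did (limma). The lowest was Rgs1, which differed by -5.43 ± 1.40 (SE; adjusted p = 0.0546 by limma); it was higher in EAE-vehicle than in naive astrocytes and lower in EAE-vehicle than in naive microglia. In order of adjusted p, Cd3e came next, at -4.12 ± 1.08 (limma, SE, adjusted p = 0.0576), and then Cd2, at -4.95 ± 1.31 (limma, SE, adjusted p = 0.0640). For RIPK1inh-1 against vehicle, the term was called for 1 gene, Cd3e, at 2.22 ± 1.01 (SE; adjusted p = 0.948 by limma), where 3.15% of all genes were called and 0.00% passed adjustment.

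The protein-coding genes whose levels followed the mean of the CD3 chains most closely over the 15 astrocyte libraries were Lcp2, an adaptor of T cell receptor signaling (Spearman's rho 0.974), Cd5 (0.95), Ccl5 (0.95), S100a4 (0.949) and Il2rb (0.948), out of 10388 candidates. The libraries share their sort and their treatment groups, so these values are a description. Values without signal entered the ranks as deposited, and Cd5 had signal in 7 of 15 astrocyte libraries. Lcp2 was not particular to the astrocyte sort: it lay at 6.44 to 7.77 in EAE microglia and at 7.10 to 7.33 in naive microglia. In astrocytes it did not exceed 4.97. The mean of the CD3 chains had little range in microglia, where it often rested on values without signal. Naive microglia library 4 had no signal for any CD3 chain, yet a mean of 0.96. The ranks in microglia therefore cannot be read as following CD3 RNA. The 5 closest genes in microglia reached a rho of 0.746 to 0.796 and included no gene of the T cell list. They were Sik3, Bag6, Rfx7, Cwc15 and Wipi1, of which none is specific to lymphocytes.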

How the data were processed

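RNA of sorted spinal cord astrocytes and microglia was sequenced after oligo(dT) purification, reverse transcription by a SMART-seq2 method, PCR and Tn5 fragmentation, which samples rare RNA unevenly. The authors quantified reads in OmicSoft Array Studio and deposited log2 FPKM, quantile-normalized over all 30 libraries; the offset before the logarithm, the aligner and the read depth are not given in the sources used here. Genes without signal were recognised per library as the lowest stretch of values that follows the order of the table. Positions of the 10 genes matched GENCODE M21 (GRCm38) for 10 of 10.

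Groups were assigned from the labels. Differences were estimated on the deposited log2 values by limma 3.58.1 under R 4.3.3 (lmFit, then eBayes with a trend). Each cell type had its own fit of 3 groups, and differences between cell types came from a joint fit of 30 libraries. Genes with identical values in all libraries of a fit were left out, which left 30718 genes in astrocytes, 28958 in microglia and 30952 in the fit of all libraries. Adjusted values are Benjamini-Hochberg over these. For single genes an exact two-sided permutation test of the means enumerated every assignment. The fit was tested on simulated data. Libraries of a group come from separate mice. The genes and marker lists were chosen with earlier results of these data known. All 10 T cell genes are named, and a gene of another list is named where it has the highest mean level of its list in a group described or an adjusted p under 0.05 in a treatment comparison; the 5 genes closest to the CD3 mean in each cell type had signal in at least 5 of 15 libraries and a mean of at least 1. Ptprc, as the gene of the gate, Cd8b1, as the other CD8 chain, the 4 genes without signal in EAE-vehicle microglia and the genes of the closing section were named after their values were seen. The methods of the study name a paired test; the labels give nothing that pairs mice of different groups, so the fits are unpaired. The alternatives were values without signal set to 0, a mean log2 value of at least 1, log2 of the linear value plus 1, libraries centred on their median, library weights, only the groups compared, a replicate block, and leaving out each library; a fit without libraries of under 10000 genes with signal was added after the data were seen.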

Additional observations from a re-analysis of the deposited data

Results flagged for a closer look

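Within a group, 5 values stood apart from the rest by Dixon's test, which flags about 1 in 20 groups by chance and was run for genes with signal in most of a group's libraries, with values without signal taken as 0. In EAE-vehicle astrocyte library 4, Cd3g was at 0 with the next library at 5.76, and Cd2 was at 1.06 with the next at 5.63. In EAE-RIPK1inh astrocyte library 4, Rgs1 was at 5.54, far above the next value of 0.93. In EAE-RIPK1inh microglia library 3, Cd3e was at 2.82 with the next at 0.66, and in naive microglia library 4 Il7r was at 0 with the next at 3.16. That naive library detected 8710 genes, the fewest of the microglia libraries.

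The change from naive to EAE-vehicle differed between the cell types for 7 genes at the cutoff of the study, with the interaction term (microglia minus astrocytes) at -3.42 for Cd3d, -4.12 for Cd3e, -4.76 for Cd3g, -4.95 for Cd2, -3.91 for Lck, -4.28 for Il7r and -5.43 for Rgs1, and none passed adjustment over all genes. For RIPK1inh-1 against vehicle the term was called for Cd3e, at 2.22, and did not pass adjustment.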

How the results depend on the processing

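With 4 to 6 mice per group and values that cannot be turned back into reads, low levels carry no counting error, and absence from a library that detected few genes cannot be read as absence from the cells. The 7 genes called in EAE-vehicle against naive astrocytes were 6 to 9 when each library was left out, 9 with library weights, 8 without libraries of under 10000 genes with signal, and 5 with the replicate block, which lost Il7r and Rgs1. Same-numbered libraries of different groups deviated together weakly at most (correlations from -0.156 to 0.144 over 11489 genes). Between the sorts, the same-numbered microglia library was the closest match of an astrocyte library in 1 of 4 naive cases. It was so in 3 of 6 EAE-vehicle and 3 of 5 EAE-RIPK1inh cases. Such correlations cannot decide whether numbers pair the mice, since weak ones leave shared mice possible. With the block the counts in microglia were 1 for EAE and 0 for RIPK1inh-1, and in astrocytes 0 for RIPK1inh-1. Between the sorts they were 1 in naive, 9 in EAE-vehicle and 8 in EAE-RIPK1inh mice. The terms for EAE and RIPK1inh-1 were called for 7 genes and 1 gene with the block. In EAE-vehicle against naive microglia 2 genes rather than 1 were called with library weights and without libraries of under 10000 genes with signal, and 1 to 2 with a library left out. For RIPK1inh-1 in astrocytes 0 to 2 were called with a library left out. Between the sorts of naive mice 2 rather than 1 were called with a mean of at least 1, centred libraries, library weights, only the groups compared or no libraries of under 10000 genes, and 1 to 2 with a library left out. The term for RIPK1inh-1 was called for 2 genes with a mean of at least 1, for 0 with library weights or only the groups compared, and for 0 to 2 with a library left out. Taking a level over 1 as signal left 5 of the 8 values in naive astrocytes, 8 of 15 in naive, 17 of 27 in EAE-vehicle and 14 of 24 in EAE-RIPK1inh microglia.

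Signs were followed for every T cell gene in astrocytes and between the sorts of EAE mice. In microglia they were followed for Il7r and Rgs1 alone, and between the sorts of naive mice for Rgs1 alone. Among these, signs turned only for differences that were not called, all for RIPK1inh-1 against vehicle. Signs of the other genes in microglia and of the interaction terms were not followed. In astrocytes, library weights gave 0.15 for Cd3d, 1.03 for Cd3g, 0.34 for Cd2, 0.32 for Cd4 and 0.38 for Lck, the replicate block 0.017 for Cd4 and 0.15 for Il7r, and the fit without libraries of under 10000 genes 0.19 for Cd3g and 0.0085 for Lck. With a library left out the differences ran from -1.15 to 0.92 for Cd3g, -1.68 to 0.11 for Cd2, -1.01 to 0.31 for Cd4, -1.43 to 0.26 for Lck, -0.079 to 1.01 for Cd28 and -0.87 to 0.54 for Il7r, and from -0.30 to 0.42 for Il7r in microglia. The cause of these changes was not tested.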

Other observations

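Further lymphocyte genes, chosen after their values were seen, are given as values. The constant genes of the T cell receptor were in the astrocyte sort: Trbc1 had signal in 6 of 6 EAE-vehicle and 4 of 5 EAE-RIPK1inh libraries, with medians of 4.96 and 2.83, against 1 of 4 naive libraries. Trbc2 had signal in 5 of 6 EAE-vehicle and 3 of 5 EAE-RIPK1inh astrocyte libraries, with medians of 6.23 and 6.54. It also had signal in 2 of 4 naive astrocyte libraries, up to 2.40. Trac was at 5.13 to 7.36 in EAE-vehicle and 4.52 to 7.33 in EAE-RIPK1inh astrocytes. It was also at 1.14 to 5.07 in all 4 naive astrocyte libraries, where Cd3d, Cd2 and Lck had no signal. Among microglia, Trac had no signal in the 4 naive libraries. It had signal in 4 of 6 EAE-vehicle microglia libraries, up to 2.26, and in 3 of 5 EAE-RIPK1inh ones, up to 3.33. Trdc, of gamma-delta T cells, did not exceed 1.36 in any astrocyte library.

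Ifng, the cytokine of Th1 and cytotoxic cells, had signal in 5 of 6 EAE-vehicle astrocyte libraries, with a median of 4.38 and a highest value of 6.61, in 2 of 5 EAE-RIPK1inh libraries, up to 4.94, and in none of the naive astrocyte or 15 microglia libraries. Some lineage factors of helper T cells were lower: in EAE-vehicle astrocytes Tbx21 had signal in 3 libraries, up to 3.08, Gata3 in 3, up to 4.23, and Foxp3 in 4, up to 3.87.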
